A study of Mus musculus with 15 samples.

Results

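The drug and organic ion transporters of the mouse kidney were described in 3 dissected zones, namely cortex, outer medulla (OM) and inner medulla (IM). Members were the rows of the expression table whose gene symbol begins with Slc22a, Slc47a, Slco, Abcb, Abcc or Abcg and a digit, which gave 69 genes of 25030. The libraries were made from total RNA of kidneys of wild-type male mice whose strain is labelled C56BL/6N, with no treatment named, and each zone has 5 libraries. The 3 groups therefore share genotype, sex and strain and differ in the dissected zone, and the age of the mice is not given in the labels. Values are in TPM, transcript shares corrected for gene length and scaled to a total of 1000000 per library, so that levels of different genes can be set side by side. For the median gene, 1 TPM stood for between 20.6 and 32.8 reads, depending on the library. Whether replicate libraries are separate mice is not stated in the labels, so p-values reflect how much these libraries vary, which could be technical variation alone.

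These genes form the route by which the proximal tubule clears drugs, toxins and metabolic waste from blood into urine. Carriers of the Slc22 family on the blood side take up organic anions and cations, and carriers and ATP-driven pumps on the brush border side (such as Slc47a1, Abcc2 and Abcg2) release them into the lumen, while other Slc22 carriers recover urate and carnitine. Organic anion transporting polypeptides (OATPs, the Slco genes) carry steroid conjugates, bile salts, thyroid hormones and prostaglandins, and some Abcb pumps work inside mitochondria and lysosomes.

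Together the 69 genes held 6982 ± 266 TPM in cortex, 6560 ± 337 TPM in OM and 2783 ± 527 TPM in IM (mean ± SD, n = 5 libraries per zone, as for all means below). That was 0.698%, 0.656% and 0.278% of each zone's transcripts. In the same order, the organic anion carriers summed to 3222 ± 177, 3148 ± 188 and 919 ± 319 TPM and the carnitine and orphan carriers to 1098 ± 53.2, 978.5 ± 54.9 and 442 ± 63.3 TPM. The OATPs summed to 504 ± 69 TPM, 430.2 ± 49.6 TPM and 499 ± 77.2 TPM. Slco1a1, Slco1a6 and Slco3a1 led that sum in cortex and OM, and Slco4a1 led it in IM. The most abundant member in all 3 zones was Slc22a12, the urate carrier URAT1, and the second was Slc22a18 in cortex and OM but Slco4a1 in IM.

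Of the 69 genes, 48 reached 1 TPM in at least 5 libraries and were tested with limma on log2(TPM + 1), with Benjamini-Hochberg adjustment over all 15052 genes tested, and a call required an adjusted p under 0.05. From cortex to OM, 18 members were higher and 7 lower, which is 37.5% and 14.6% of those tested, against 28.3% and 6.3% of all genes. From OM to IM, 11 members were higher and 31 lower (22.9% and 64.6%), against 66.4% and 17.2% of all genes. Between cortex and IM, 19 were higher and 24 lower in IM (39.6% and 50%), against 70.2% and 16% of all genes. The median log2 difference of the tested members was 0.062 for OM against cortex (0.114 over all genes), -0.607 for IM against OM (0.514 over all genes) and -0.126 for IM against cortex (0.652 over all genes).

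Those medians place the typical gene higher in IM when TPM is taken as it is. Median-ratio scaling, which divides each library by its typical gene, brought the medians of all genes to -0.021, 0.022 and 0.031 in the order OM against cortex, IM against OM and IM against cortex. On that scale 15 members were higher and 10 lower in OM than in cortex (16.5% and 17% of all genes), 9 higher and 37 lower in IM than in OM (37.9% and 36.5%), and 12 higher and 30 lower in IM than in cortex (40.1% and 38.5%). For members described with their values, a call that differs between both scales is given on each. Without cortex 1, OM 1 and IM 4, which stand apart from the other libraries in many of these genes, the TPM counts were 19 and 9, 11 and 31, and 20 and 24.

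**Figure D1:**
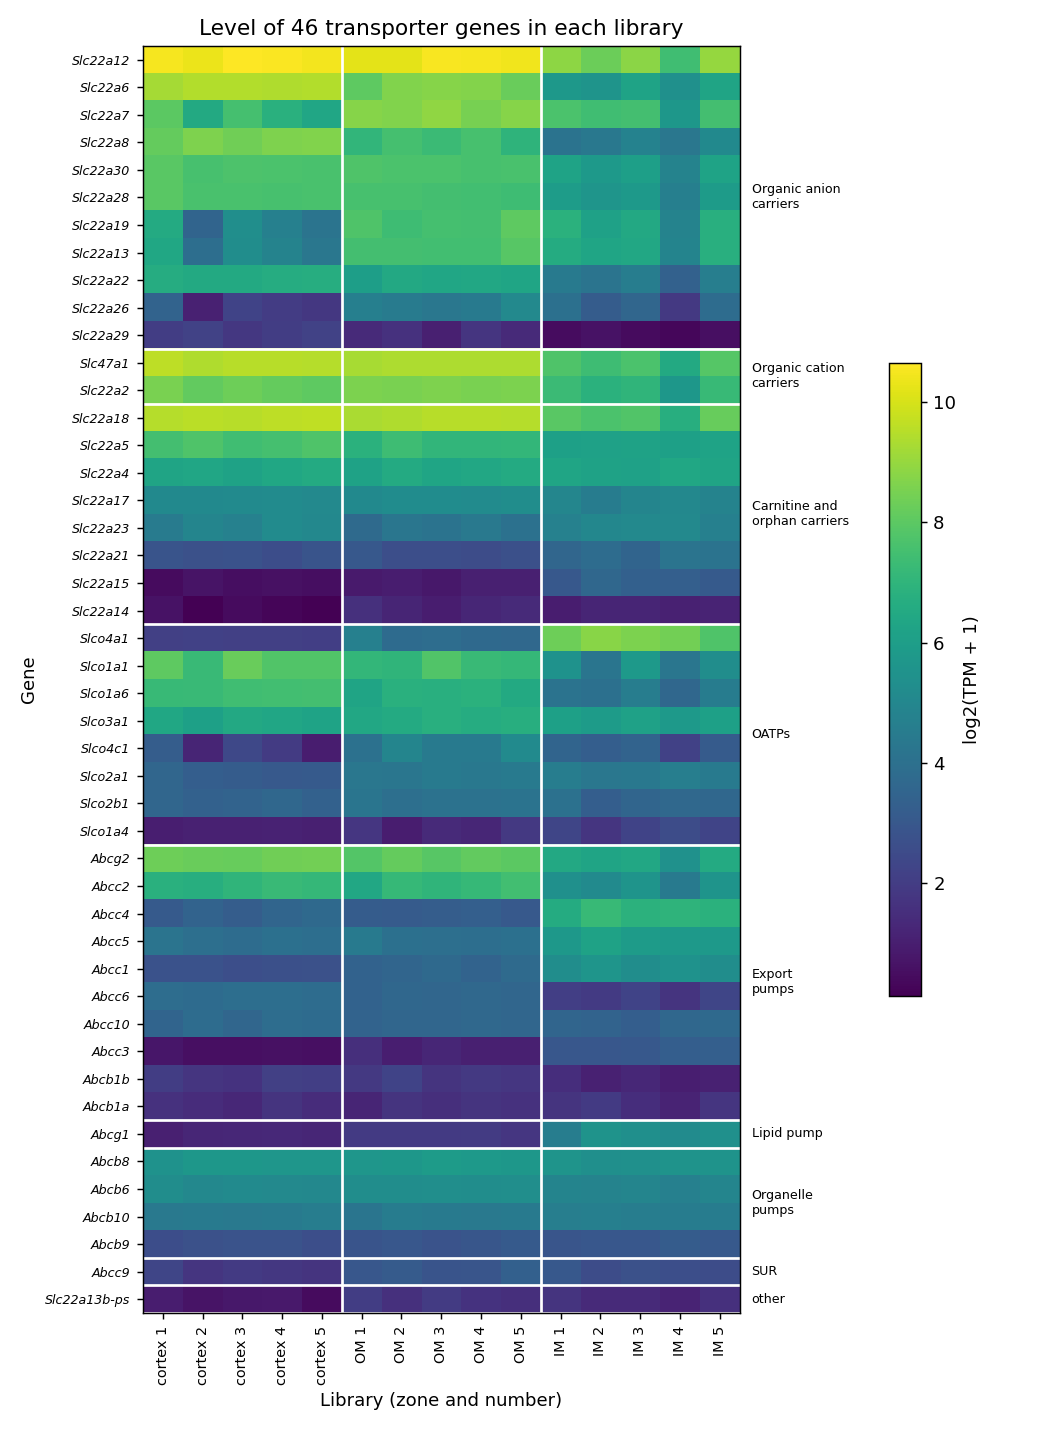
Level of 46 of the 48 tested transporter genes in each of the 15 libraries, as log2(TPM + 1), with genes grouped by role and libraries by zone. Anion and cation carriers are bright in cortex and OM and darker in IM, 4 anion carriers are brightest in OM, and Slco4a1, Abcc4, Abcc5, Abcc1 and Abcg1 brighten in IM.

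The dissection was checked against marker genes. Summed convoluted proximal tubule markers (Slc5a2, Slc5a12, Slc34a1, Slc6a19 and Cyp2e1) ranged from 8194 to 9799 TPM in cortex, 3983 to 5341 TPM in OM and 641.5 to 1146 TPM in IM, and all 5 were lower in each deeper zone. Straight proximal tubule markers (Slc7a13, Acsm3, Cyp7b1 and Slc5a1) ranged from 1078 to 2044 TPM in cortex, 2673 to 3499.6 TPM in OM and 394 to 1399 TPM in IM, with 3 of 4 higher in OM than in cortex and 3 of 4 lower in IM than in OM. Of all genes, 28.3% were higher and 6.3% lower in OM than in cortex. In IM, 17.2% were lower than in OM. No gene of either proximal tubule list was at 0. The IM libraries thus held proximal tubule transcripts, at 0.179-fold (convoluted) and 0.369-fold (straight) of OM. Thick ascending limb markers (Umod, Slc12a1 and Cldn16) ranged from 2425 to 5151 TPM in OM and 2069.5 to 4549.8 TPM in IM. None of these was called between OM and IM. How much tissue of a neighbouring zone each piece held was not measured, so values for IM are those of the dissected pieces. In these whole-tissue libraries, fewer cells of a type and less RNA per cell cannot be told apart. The part of the markers' change in the transporters' change was not tested.

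Among the organic anion carriers (13 genes, 11 tested), 4 were higher and 3 lower in OM than in cortex, all 11 were lower in IM than in OM, and between IM and cortex 7 were lower and 3 higher on the TPM scale. After scaling 7 were lower in IM than in cortex and none of the other 4 passed. Of all genes, 28.3% were higher and 6.3% lower in OM than in cortex, and 17.2% were lower in IM than in OM. For IM against cortex, 16% were lower and 70.2% higher on the TPM scale, and 38.5% lower and 40.1% higher after scaling. Slc22a6 (OAT1) and Slc22a8 (OAT3) are the exchangers that take up p-aminohippurate, diuretics and antivirals on the blood side of the proximal tubule in exchange for dicarboxylates. In library order 1 to 5, which is used throughout, Slc22a6 was 593, 684, 687, 681 and 691 TPM in cortex, 264, 399, 422, 415 and 301 TPM in OM and 52.1, 46.3, 73.7, 41.5 and 75.6 TPM in IM. The zones did not overlap, and cortex 1 lay below the other 4 cortex libraries. Slc22a6 was 1.85-fold lower in OM than in cortex (log2 difference -0.91, SE 0.17, adjusted p = 0.000789) and 11.5-fold lower in IM than in cortex (log2 difference -3.55, SE 0.17, adjusted p = 3.27e-11).

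Slc22a8 was 288, 386, 329, 386 and 404 TPM in cortex, 131, 188, 158, 189 and 126 TPM in OM and 16.5, 19, 26.7, 18.5 and 33.3 TPM in IM. Its zones did not overlap either, and cortex 1 was again the lowest cortex library. Slc22a8 was 2.26-fold lower in OM than in cortex (log2 difference -1.18, SE 0.18, adjusted p = 0.000175) and 15.7-fold lower in IM than in cortex (log2 difference -3.95, SE 0.18, adjusted p = 2.58e-11), the steepest fall of all members that were tested. It alone met the rule for enrichment in cortex, a called log2 difference of at least 1 over both other zones, which 0.452% of all genes met. After median-ratio scaling Slc22a6 met it too (log2 difference -1.07 between OM and cortex), as did 0.89% of all genes. The ratio of Slc22a6 to Slc22a8 within a library, which no scaling can move, was 1.87 in cortex, 2.27 in OM and 2.55 in IM. Over 5 such ratios and 3 comparisons, with pairs chosen after their values were seen, it was higher in IM than in cortex (exact permutation test, two-sided, 0.00794 being the smallest p that 5 against 5 libraries allow, adjusted p = 0.0119). Between OM and cortex its adjusted p was 0.0397 in the exact permutation test, and between 0.0595 and 0.0794 when cortex 2, 4 or 5 or OM 2, 3, 4 or 5 was left out.

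Both genes have the letters GTTAAT, part of the binding site of the factor HNF1, in the promoter listed by RefSeq for the build GRCm38.p6, and so the 120 bases before their start are shown with that motif in capitals. The stretch of Slc22a6 is chr19:8617876-8617995 on the plus strand and its motif begins at base -56 from the start. That of Slc22a8 is chr19:8593062-8593181, also on the plus strand, and its motif begins at base -81.
Slc22a6: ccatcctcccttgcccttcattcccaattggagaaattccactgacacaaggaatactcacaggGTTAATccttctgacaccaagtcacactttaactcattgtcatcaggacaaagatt
Slc22a8: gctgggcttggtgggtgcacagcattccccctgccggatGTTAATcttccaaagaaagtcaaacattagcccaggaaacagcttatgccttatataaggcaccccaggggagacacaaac
Promoters were listed for 54 of the 69 genes, 64 promoters in all, each from 250 bases before to 50 after a start. GTTAAT, on either strand, was in 4 of the 64 (6.25%), those of Slc22a6, Slc22a8, Slc22a29 and Slco1b2, and in 7.1% of all 32851 promoters of the same length. CAAAGTCCA, a site of the factor HNF4, was in 0 of the 64 and in 0.475% of all. TATAAA was in 13 (20.3%) and in 13.6% of all. These are matches of letters, and the binding of a factor was not measured.

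Slc22a12, the exchanger that recovers urate from the lumen, was 1452, 1299, 1606, 1531 and 1408 TPM in cortex, 1202, 1176, 1493, 1436 and 1367 TPM in OM and 470.0, 309.7, 453, 172 and 507 TPM in IM. Cortex and OM overlapped and all IM libraries lay lower, with IM 4 the lowest. Slc22a12 was 3.49-fold lower in IM than in OM (log2 difference -1.89, SE 0.23, adjusted p = 2.08e-06), and its difference between OM and cortex did not pass the test (log2 difference -0.13, SE 0.23, adjusted p = 0.693). Slc22a22, a prostaglandin carrier known from the mouse (OAT-PG), was 98.1, 90.4, 89.8, 97.6 and 103 TPM in cortex, 63.5, 88.4, 80.3, 85.4 and 79.2 TPM in OM and 20.9, 17, 22.8, 9.46 and 23.8 TPM in IM. Its cortex and OM libraries were separate by a narrow gap, and IM lay far below both. It was 4.22-fold lower in IM than in OM (log2 difference -2.08, SE 0.19, adjusted p = 7.31e-08), while OM against cortex did not pass the test in the fit of all 3 zones (adjusted p = 0.274). With OM and cortex alone in the fit it did (log2 difference -0.28, adjusted p = 0.0194), and also without IM 4 (adjusted p = 0.0319).

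**Figure D2:**
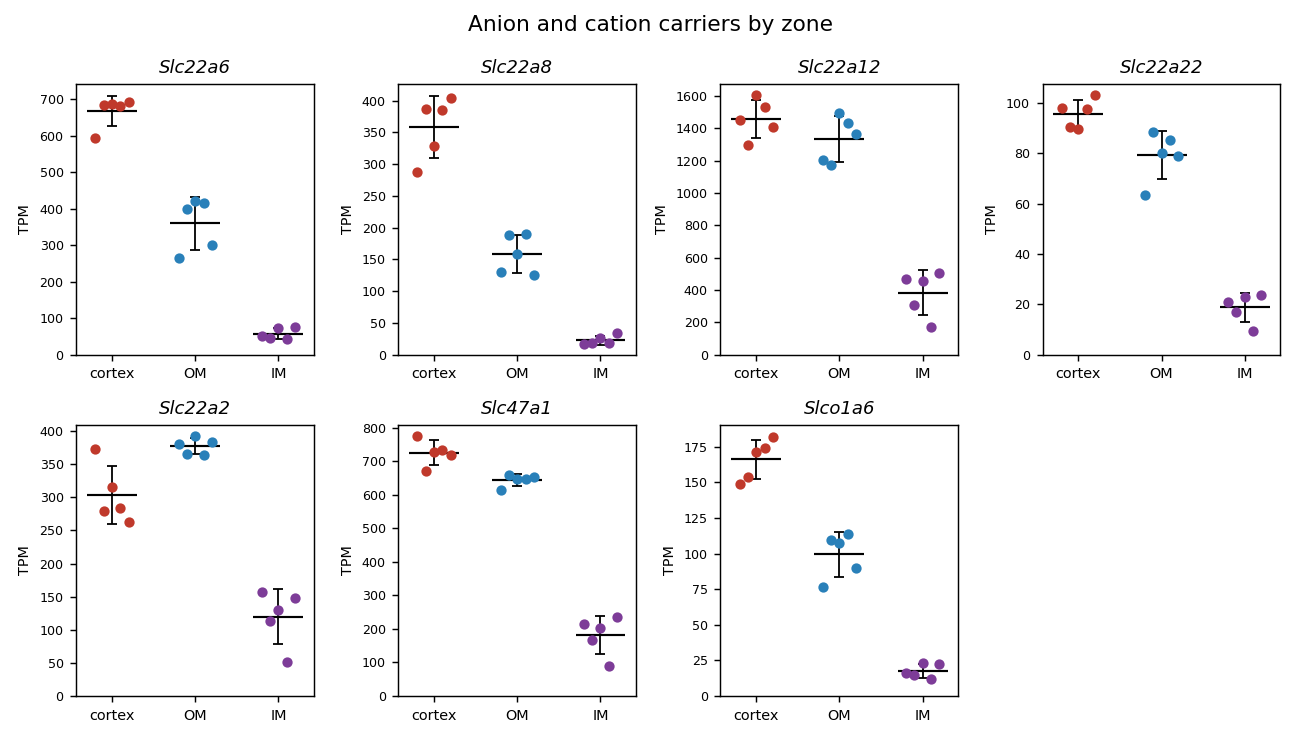
TPM of 7 carriers in the 15 libraries, where each point is a library, the wide bar the zone mean and the error bar 1 SD (n = 5). Slc22a6, Slc22a8 and Slco1a6 step down at each zone, Slc22a12 overlaps between cortex and OM, Slc22a2 has its highest mean in OM, and IM is lowest for all 7.

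Several of the other anion carriers lie beside Slc22a6 and Slc22a8 on chromosome 19. In the order of the RefSeq gene table, Slc22a19, Slc22a26, Slc22a27, Slc22a28, Slc22a29, Slc22a30, Slc22a8 and Slc22a6 are 8 consecutive protein-coding genes, and their zone patterns differed. Slc22a28 and Slc22a30 belong to a branch of the anion carriers that expanded in rodents. Slc22a28 was 244, 198, 198, 194 and 196 TPM in cortex, 190.1, 191, 178, 178 and 164 TPM in OM and 60.8, 47.9, 55.8, 24.7 and 58.8 TPM in IM. Cortex 1 stood above the other cortex libraries, OM lay just below them, and IM was lowest. Slc22a28 was 3.64-fold lower in IM than in OM (log2 difference -1.91, SE 0.19, adjusted p = 2e-07) and did not pass the test between OM and cortex (log2 difference -0.19, adjusted p = 0.473).

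Slc22a30 was 246, 189, 211, 199.8 and 197 TPM in cortex, 211, 202, 201, 193 and 195 TPM in OM and 74.1, 54.2, 65.8, 27.5 and 75 TPM in IM. Cortex and OM overlapped, cortex 1 was the highest library and IM 4 the lowest, as for Slc22a28. Its level was 3.38-fold lower in IM than in OM (log2 difference -1.82, SE 0.21, adjusted p = 1.06e-06), and OM against cortex did not pass (log2 difference -0.05, adjusted p = 0.868). The 250 bases before the start of Slc22a28 and of Slc22a30 were identical at 238 positions in a global alignment, while Slc22a28 and Slc22a19 shared 166. Their last 120 bases are shown, all 4 from the minus strand, to let the near copy be seen beside Slc22a29 and Slc22a19, with GTTAAT in capitals as its opposite strand reads (in Slc22a29, from base -29). The positions are chr19:8131983-8132102, chr19:8405106-8405225, chr19:8218901-8219020 and chr19:7711311-7711430 in the order of the lines.
Slc22a28: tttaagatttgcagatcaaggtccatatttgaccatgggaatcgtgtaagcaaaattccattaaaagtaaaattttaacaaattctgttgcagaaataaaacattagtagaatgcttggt
Slc22a30: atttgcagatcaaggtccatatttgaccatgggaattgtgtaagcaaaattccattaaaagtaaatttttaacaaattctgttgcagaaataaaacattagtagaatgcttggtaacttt
Slc22a29: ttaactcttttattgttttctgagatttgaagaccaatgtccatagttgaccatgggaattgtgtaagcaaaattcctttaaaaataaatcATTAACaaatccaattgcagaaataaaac
Slc22a19: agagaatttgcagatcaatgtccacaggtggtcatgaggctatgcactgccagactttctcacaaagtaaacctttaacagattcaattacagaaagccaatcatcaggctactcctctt
How reads were shared between near-identical genes is not given in the sources used here, so values of Slc22a28, Slc22a30, Slc22a26, Slc22a27, Slc22a29 and Slc22a19 are uncertain as to which copy the reads came from. Slc22a29 lay below 5 TPM in every zone, at 3.21, 1.76 and 0.404 TPM in cortex, OM and IM.

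In OM, 5 members were called higher than in cortex and in IM by a log2 difference of at least 1, which 0.438% of all genes were. They were Slc22a7, Slc22a13, Slc22a19, Slc22a26 and Slco4c1, and the same 5 met the rule after median-ratio scaling, as did 0.625% of all genes. Their summed level was 226 ± 140.2 TPM in cortex, 857 ± 89.2 TPM in OM and 336 ± 131 TPM in IM. Slc22a7 (OAT2), a carrier of nucleotides, prostaglandins and other organic anions, was 257, 90.8, 184, 111 and 81.5 TPM in cortex, 426, 406, 472, 359 and 426 TPM in OM and 200.2, 172, 182, 50.6 and 181 TPM in IM. Every OM library lay above every library of the other zones, the cortex values spread widely with cortex 1 the highest, and IM 4 fell below all other libraries. Slc22a7 was 2.88-fold higher in OM than in cortex (log2 difference 1.66, SE 0.37, adjusted p = 0.00311) and 2.66-fold lower in IM than in OM (log2 difference -1.54, SE 0.37, adjusted p = 0.0013).

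Slc22a13 (OAT10), known in humans as a carrier of nicotinate and urate, was 84.1, 14.3, 38, 27.5 and 18.6 TPM in cortex, 182, 178, 176, 178 and 240.0 TPM in OM and 95.8, 79.1, 85.5, 28.1 and 107 TPM in IM. All OM libraries were above all others, and OM 5 above the other 4. Slc22a13 was 5.23-fold higher in OM than in cortex (log2 difference 2.62, SE 0.42, adjusted p = 0.000275) and 2.41-fold lower in IM than in OM (log2 difference -1.38, SE 0.42, adjusted p = 0.00719). Slc22a19 (OAT5), a brush border carrier of steroid sulfates in rodents, was 92.4, 10.5, 39.4, 25.2 and 17.2 TPM in cortex, 212, 164, 185, 181 and 261 TPM in OM and 115, 69.3, 87.8, 27.3 and 108 TPM in IM. The OM libraries did not overlap with the rest, and cortex spanned from cortex 2 to a value in cortex 1 within the range of the IM libraries. Slc22a19 was 5.43-fold higher in OM than in cortex (log2 difference 2.78, SE 0.49, adjusted p = 0.000555) and 2.46-fold lower in IM than in OM (log2 difference -1.42, SE 0.49, adjusted p = 0.0142).

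Slc22a26, another rodent anion carrier of the chromosome 19 row, was 10.1, 1.1, 3.79, 2.99 and 2.61 TPM in cortex, 24.5, 21.8, 18.5, 20.7 and 32.7 TPM in OM and 15.3, 8.11, 11.1, 2.68 and 13.4 TPM in IM. OM again lay above all other libraries. Slc22a26 was 5.74-fold higher in OM than in cortex (log2 difference 2.47, SE 0.43, adjusted p = 0.000486) and 2.34-fold lower in IM than in OM (log2 difference -1.29, SE 0.43, adjusted p = 0.0116), and without IM 4 it no longer met the rule, which left 4 genes. Slco4c1, an OATP of the blood side that carries digoxin and thyroid hormone in human and rat, was 8.32, 1.32, 4.28, 2.89 and 0.965 TPM in cortex, 15.4, 29.4, 21.3, 21.3 and 34.4 TPM in OM and 10.6, 8.53, 10.3, 3.43 and 7.84 TPM in IM. It lay higher in every OM library than in any library of cortex or IM. Slco4c1 was 6.85-fold higher in OM than in cortex (log2 difference 2.66, SE 0.39, adjusted p = 0.00014) and 2.99-fold lower in IM than in OM (log2 difference -1.50, SE 0.39, adjusted p = 0.00254).

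Within cortex and IM the 5 genes shared the extreme libraries. In cortex, cortex 1 was the highest, cortex 3 the next and cortex 4 the third for all 5, and in IM, IM 4 was the lowest for all 5. In OM the ranks differed, with OM 5 the highest for all but Slc22a7, OM 3 the highest for Slc22a7 but the lowest for Slc22a13 and Slc22a26, and OM 1 the lowest for Slco4c1. The summed straight proximal tubule markers were also highest in cortex 1 (2044 TPM) among the cortex libraries, with cortex 3 next (1650.2 TPM), and lowest in IM 4 (394 TPM) among the IM libraries. The convoluted markers were lowest in cortex 1 (8194 TPM) among the cortex libraries. Between IM and cortex, Slc22a13, Slc22a19, Slc22a26 and Slco4c1 were higher in IM on the TPM scale (adjusted p = 0.0127, 0.0179, 0.0181 and 0.0123 with limma), and none of the 4 passed after scaling (adjusted p = 0.245, 0.228, 0.211 and 0.183). Without cortex 2, the adjusted p was 0.0519 for Slc22a19 and 0.0528 for Slc22a26. Slc22a7 did not pass between IM and cortex with limma on the TPM scale (log2 difference 0.11, adjusted p = 0.781) or after scaling (log2 difference -0.58, adjusted p = 0.174). Without cortex 1, OM 1 and IM 4 it was higher in IM (log2 difference 0.72, adjusted p = 0.0068 with limma). Cortex 1 and IM 4 hold its highest cortex value and its lowest IM value and were set aside for standing apart in these genes. Leaving them out widens the difference by itself, so that p-value is no support for one.

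**Figure D3:**
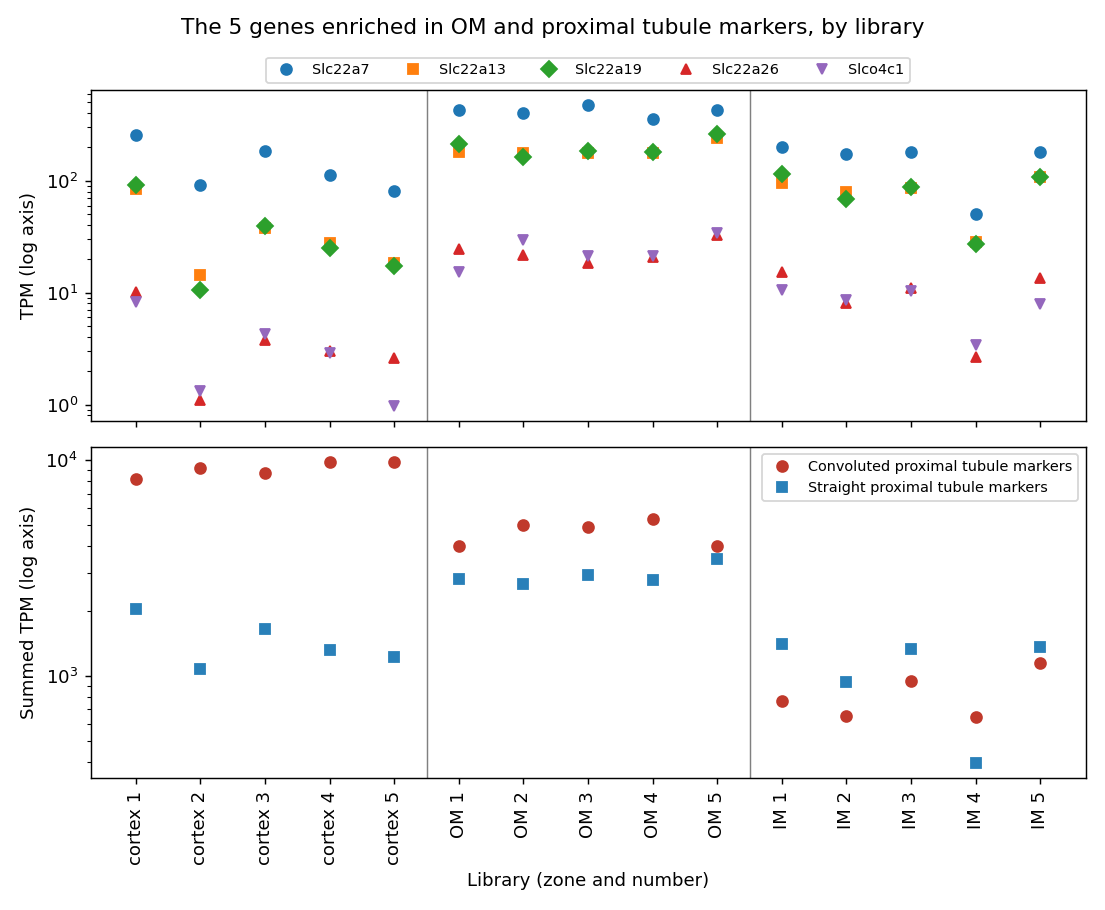
Top, TPM on a log axis of the 5 genes enriched in OM in each library. Bottom, summed TPM on a log axis of the convoluted and straight proximal tubule markers in the same libraries. Cortex 1 is high and IM 4 low, within their zones, for the 5 genes and for the straight tubule markers alike, while the convoluted markers are lowest in cortex 1 among the cortex libraries.

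Among the organic cation carriers, Slc47a1 (MATE1), the proton exchanger that releases cations such as metformin into the lumen, was 774, 671, 728, 734 and 718 TPM in cortex, 613, 658, 648, 647 and 651 TPM in OM and 215, 168, 203, 89.6 and 234 TPM in IM. OM lay just below cortex without overlap, and IM was much lower with IM 4 the lowest. Slc47a1 was 3.54-fold lower in IM than in OM (log2 difference -1.89, SE 0.19, adjusted p = 2.39e-07).

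Slc22a2 (OCT2), a cation carrier of the blood side, was 373, 279.9, 316, 284 and 263 TPM in cortex, 381, 366, 393, 364 and 384 TPM in OM and 157, 113, 129.5, 51.4 and 148 TPM in IM. Its OM libraries stood above cortex 2 to 5 but overlapped with cortex 1. Slc22a2 was 3.15-fold lower in IM than in OM (log2 difference -1.75, SE 0.23, adjusted p = 5.07e-06). Neither gene passed between OM and cortex in the fit of all zones (adjusted p = 0.52 for Slc47a1 and 0.296 for Slc22a2). With only cortex and OM in the fit, which was added after the data were seen, Slc47a1 was lower in OM (log2 difference -0.17, adjusted p = 0.0104) and Slc22a2 was higher (log2 difference 0.33, adjusted p = 0.00816). Leaving out IM 4 alone brought the adjusted p of Slc22a2 to 0.0145.

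The ratio of Slc47a1 to Slc22a2 was 2.41 in cortex, 1.70 in OM and 1.54 in IM, lower in OM and in IM than in cortex (exact permutation tests, adjusted p = 0.0119 each) and with an adjusted p of 0.0733 between IM and OM, which was 0.0198 without IM 4. Such a ratio shows unequal change of 2 genes and not which of them moved. The cation carriers Slc22a3 and Slc47a2 did not reach the filter, with zone means up to 1.24 TPM.

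The carnitine, ergothioneine and orphan carriers of the Slc22 family (9 genes, 8 tested) split between zones. From cortex to OM 2 were higher and 2 lower, from OM to IM 3 were higher and 3 lower, and between IM and cortex 3 were higher and 3 lower in IM, on the TPM scale, where 66.4% of all genes were higher and 17.2% lower in IM than in OM. After scaling the last 2 counts became 2 higher and 5 lower and 3 higher and 5 lower. On the TPM scale, 28.3% of all genes were higher and 6.3% lower in OM than in cortex. For IM against cortex the shares were 70.2% and 16%. With scaling the shares were 37.9% and 36.5% for IM against OM and 40.1% and 38.5% for IM against cortex. Slc22a18, an imprinted gene with no settled substrate, was 722, 744, 738, 771 and 788 TPM in cortex, 638, 679, 731, 723 and 717 TPM in OM and 248, 200.2, 224, 106 and 290.3 TPM in IM. Cortex and OM overlapped, and IM lay lower with IM 4 at the bottom. It was 3.27-fold lower in IM than in OM (log2 difference -1.78, SE 0.19, adjusted p = 5.33e-07). Slc22a5 (OCTN2), which recovers carnitine from the filtrate, was 180.2, 217, 171, 185 and 217 TPM in cortex, 115, 165, 131, 134 and 134 TPM in OM and 67.5, 69.1, 72.8, 68.2 and 74.7 TPM in IM. OM lay below cortex in every library, IM lay below OM, and the 5 IM libraries were close to each other, IM 4 among them. Slc22a5 was 1.43-fold lower in OM than in cortex (log2 difference -0.52, SE 0.09, adjusted p = 0.000306) and 1.92-fold lower in IM than in OM (log2 difference -0.93, SE 0.09, adjusted p = 6.75e-08).

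Slc22a4 (OCTN1), the ergothioneine carrier and neighbour of Slc22a5 on chromosome 11, was 76.1, 81.6, 71.4, 84.2 and 92.5 TPM in cortex, 71.3, 94.5, 78.9, 85.3 and 93.3 TPM in OM and 79.2, 72.5, 69.4, 82.9 and 76.8 TPM in IM. All 3 zones overlapped. Neither IM against OM (log2 difference -0.15, adjusted p = 0.12) nor IM against cortex (log2 difference -0.09, adjusted p = 0.333) passed on the TPM scale, whereas after median-ratio scaling it was lower in IM than in both (log2 differences -0.68 and -0.78). Without OM 1 it was lower in IM than in OM on the TPM scale as well (log2 difference -0.20, adjusted p = 0.0258). The ratio of Slc22a5 to Slc22a4 went from 2.39 in cortex to 1.60 in OM and 0.926 in IM, with no overlap between zones and each comparison passing (exact permutation tests, adjusted p = 0.0119 each).

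Slc22a21 (OCTN3), a carnitine carrier known from the mouse and the gene between those neighbours, went the other way. It was 6.32, 5.69, 5.82, 5.03 and 6.22 TPM in cortex, 7.07, 5.24, 5.26, 4.92 and 5.53 TPM in OM and 11.3, 13.3, 10.5, 17.2 and 16.8 TPM in IM. Cortex and OM overlapped, and every IM library lay above both. Slc22a21 was 2.38-fold higher in IM than in cortex (log2 difference 1.10, SE 0.13, adjusted p = 5.06e-07), and 2.47-fold higher than in OM (log2 difference 1.15, SE 0.13, adjusted p = 3.81e-07). After scaling the differences were 0.47 and 0.66 (log2), still called but under the size that enrichment asks for. Slc22a15, a carrier of ergothioneine and other zwitterions in human cells, was 0.361, 0.603, 0.416, 0.496 and 0.439 TPM in cortex, 0.832, 0.945, 0.741, 1.05 and 1.1 TPM in OM and 7.25, 11.4, 9.33, 9.06 and 7.62 TPM in IM. IM stood clear of both other zones, 19.3-fold above cortex (log2 difference 2.75, SE 0.11, adjusted p = 1.29e-12). The pseudocount holds this log2 difference below that of the fold.

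Slc22a23, an orphan carrier, had its lowest level in OM, at 28.8 ± 5.39 TPM in cortex, 16.5 ± 2.66 TPM in OM and 29.4 ± 3.86 TPM in IM. It was lower in OM than in cortex (log2 difference -0.76, SE 0.13, adjusted p = 0.000418) and higher in IM than in OM (log2 difference 0.80, SE 0.13, adjusted p = 3.91e-05), and after scaling the latter did not pass (log2 difference 0.28, adjusted p = 0.0569) while IM against cortex was lower (log2 difference -0.64). Slc22a17, a receptor for lipocalin, was at 34.2 ± 0.981 TPM in cortex, 36.2 ± 1.78 TPM in OM and 28.2 ± 3.5 TPM in IM. It was 1.28-fold lower in IM than in OM (log2 difference -0.36, SE 0.07, adjusted p = 0.000277) and did not pass between OM and cortex (adjusted p = 0.452).

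Among the OATPs (15 genes, 8 tested), 5 were higher and 1 lower in OM than in cortex, 2 were higher and 5 lower in IM than in OM, and between IM and cortex 4 were higher and 3 lower in IM. After scaling these counts were 4 and 1, 2 and 6, and 3 and 4. In the same order, the shares of all genes were 28.3% and 6.3%, 66.4% and 17.2%, and 70.2% and 16% on the TPM scale. With scaling they were 16.5% and 17%, 37.9% and 36.5%, and 40.1% and 38.5%. Slco4a1, which carries thyroid hormone and prostaglandins, was 3.39, 3.46, 3.3, 3.31 and 3.18 TPM in cortex, 24.8, 12.8, 13.7, 12.3 and 11.9 TPM in OM and 321, 439.9, 379, 339 and 214 TPM in IM. The cortex libraries lay within a narrow band, OM 1 stood above the other OM libraries, and every IM library exceeded all others many times over. Slco4a1 was 4.54-fold higher in OM than in cortex (log2 difference 1.84, SE 0.19, adjusted p = 6.85e-06), 22.4-fold higher in IM than in OM (log2 difference 4.41, SE 0.19, adjusted p = 3.98e-11) and 102-fold higher in IM than in cortex (log2 difference 6.26, SE 0.19, adjusted p = 5.33e-13). After median-ratio scaling the last difference was 5.62.

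Slco1a1, an OATP of steroid conjugates that male mouse kidney is known to express, was 261, 154, 305, 218 and 220.1 TPM in cortex, 135, 127, 220.0, 153 and 140.4 TPM in OM and 43.9, 17.3, 54.3, 18 and 38 TPM in IM. Cortex and OM overlapped and IM was lower. Slco1a1 was 4.52-fold lower in IM than in OM (log2 difference -2.26, SE 0.30, adjusted p = 5.08e-06), and its difference between OM and cortex did not pass (log2 difference -0.57, adjusted p = 0.157). With those zones alone in the fit the adjusted p was 0.0436. Slco1a6, a member of the same cluster on chromosome 6, was 149, 154, 171, 174 and 182 TPM in cortex, 76.6, 109.6, 107, 114 and 89.6 TPM in OM and 16.4, 15, 23.3, 11.6 and 22.4 TPM in IM. The zones did not overlap. It was 1.67-fold lower in OM than in cortex (log2 difference -0.75, SE 0.16, adjusted p = 0.00232) and 9.38-fold lower in IM than in cortex (log2 difference -3.20, SE 0.16, adjusted p = 5.53e-11). Reads of the near-identical Slco1a genes may have been shared in the counting.

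Slco3a1, a broadly expressed OATP, was 83.9, 68.7, 89.3, 80.6 and 74.6 TPM in cortex, 86, 94.1, 108, 98.9 and 104 TPM in OM and 68.4, 59.5, 69.5, 53.5 and 67.6 TPM in IM. OM overlapped with the upper end of the cortex range and IM with its lower end. Slco3a1 was 1.24-fold higher in OM than in cortex (log2 difference 0.31, SE 0.09, adjusted p = 0.0132), which did not pass after scaling (adjusted p = 0.249), and 1.54-fold lower in IM than in OM (log2 difference -0.62, SE 0.09, adjusted p = 6.58e-06). Slco2a1, the prostaglandin transporter, was at 8.59 ± 1.58 TPM in cortex, 19.7 ± 1.33 TPM in OM and 21.1 ± 2.4 TPM in IM. It was higher in OM than in cortex (log2 difference 1.12, SE 0.10, adjusted p = 1.03e-06) and did not pass between IM and OM on the TPM scale (log2 difference 0.09), where scaling made it lower (log2 difference -0.43, adjusted p = 0.00117). Slco2b1, a carrier of steroid sulfates and statins, was highest in OM, at 10.3 ± 0.824 TPM in cortex, 16.2 ± 1.09 TPM in OM and 11.7 ± 2.42 TPM in IM, and passed against cortex (log2 difference 0.60, SE 0.11, adjusted p = 0.000448). Between IM and cortex it did not pass on the TPM scale (log2 difference 0.14, adjusted p = 0.212), was higher without IM 2 (log2 difference 0.23, adjusted p = 0.027) and lower after scaling (log2 difference -0.49).

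The drug and conjugate export pumps (11 genes, 10 tested) differed in direction. On the TPM scale 4 were higher and 4 lower in IM than in OM, where 66.4% and 17.2% of all genes were, 4 higher and 5 lower in IM than in cortex, and 2 higher and 1 lower in OM than in cortex. After scaling these counts were 4 and 5, 4 and 6, and 2 and 3. On the TPM scale, 70.2% of all genes were higher and 16% lower in IM than in cortex. For OM against cortex the shares were 28.3% and 6.3%. With scaling the shares were 37.9% and 36.5%, 40.1% and 38.5%, and 16.5% and 17%, in the order of the counts. Abcg2 (BCRP), a brush border pump for urate and many drugs, was 318, 299.6, 298, 333 and 338 TPM in cortex, 229.9, 283, 242, 275 and 257 TPM in OM and 89.2, 76.6, 85.3, 43.3 and 93.6 TPM in IM. The zones did not overlap, and IM 4 was the lowest library. Abcg2 was 3.31-fold lower in IM than in OM (log2 difference -1.76, SE 0.16, adjusted p = 6.09e-08). Between OM and cortex it did not pass in the fit of all zones (log2 difference -0.30, adjusted p = 0.155), and passed with OM and cortex alone (adjusted p = 0.00298) or without IM 4 (adjusted p = 0.00272). Abcc2 (MRP2), a brush border pump for glutathione and glucuronide conjugates, was 110.0, 106, 128, 150.0 and 138 TPM in cortex, 86.6, 143, 126, 144 and 173 TPM in OM and 41, 34.7, 46.6, 20.4 and 47.1 TPM in IM. Cortex and OM overlapped. Abcc2 was 3.55-fold lower in IM than in OM (log2 difference -1.82, SE 0.22, adjusted p = 1.87e-06).

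Abcc4 (MRP4), a pump for cyclic nucleotides, prostaglandins and urate, was 7.56, 9.98, 8.43, 10.7 and 12.1 TPM in cortex, 8.22, 7.79, 8.45, 8.87 and 7.48 TPM in OM and 97, 146, 119, 126 and 116 TPM in IM. Cortex and OM overlapped at a low level, and all IM libraries lay far above. Abcc4 was 14.8-fold higher in IM than in OM (log2 difference 3.72, SE 0.11, adjusted p = 6.69e-13) and 12.4-fold higher than in cortex (log2 difference 3.51, SE 0.11, adjusted p = 2.65e-13). The ratio of Abcc2 to Abcc4 was 13.0 in cortex, 16.1 in OM and 0.304 in IM. It was lower in IM than in each other zone (exact permutation tests, adjusted p = 0.0119 each). As Abcc2 was lower and Abcc4 higher in every IM library, those results were fixed by the genes' own values and add no support. Between OM and cortex the adjusted p of the ratio was 0.183 in the same test, or 0.0366 without OM 1. On the TPM scale Abcc4 alone did not pass between OM and cortex (adjusted p = 0.156), but it was lower in OM after scaling (log2 difference -0.36, adjusted p = 0.0188) and without cortex 1 (log2 difference -0.30, adjusted p = 0.0496).

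Abcc1 (MRP1), a pump for glutathione conjugates and leukotrienes, was 5.94, 5.84, 5.22, 5.48 and 5.69 TPM in cortex, 9.7, 10.9, 12.3, 10.3 and 12.5 TPM in OM and 38.5, 48.3, 37.8, 43.3 and 38.4 TPM in IM. Each deeper zone was higher and none overlapped. Abcc1 was 1.98-fold higher in OM than in cortex (log2 difference 0.87, SE 0.08, adjusted p = 1.44e-06) and 3.71-fold higher in IM than in OM (log2 difference 1.80, SE 0.08, adjusted p = 2.02e-11). Abcc5 (MRP5), which exports nucleotide analogues, was 17, 14.9, 13.5, 15.1 and 14.2 TPM in cortex, 20.4, 15.3, 14.8, 14.4 and 15 TPM in OM and 52.2, 72.7, 58.9, 55.8 and 55.6 TPM in IM. OM 1 stood above the other OM and all cortex libraries, and IM lay above all. Abcc5 was 3.95-fold higher in IM than in cortex (log2 difference 1.91, SE 0.10, adjusted p = 4.21e-11). Abcc3 (MRP3), a pump for glucuronides and bile salts, was 0.698, 0.475, 0.472, 0.522 and 0.461 TPM in cortex, 1.89, 1.03, 1.38, 1.08 and 1.05 TPM in OM and 6.86, 6.99, 7.25, 8.54 and 9.03 TPM in IM. IM lay above all other libraries, 14.7-fold over cortex (log2 difference 2.51, SE 0.11, adjusted p = 4.76e-12).

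Abcc6, whose loss causes pseudoxanthoma elasticum in humans, was at 13.7 ± 0.539 TPM in cortex, 11.2 ± 0.82 TPM in OM and 3.21 ± 0.72 TPM in IM. It was 4.27-fold lower in IM than in cortex (log2 difference -1.82, SE 0.10, adjusted p = 7.01e-11). Its call in OM against cortex was weak (log2 difference -0.27, SE 0.10, adjusted p = 0.0443) and was lost when any single cortex or OM library was left out (adjusted p = 0.0505 to 0.0962), with a pseudocount of 0.1 (adjusted p = 0.0744) and with no filter (adjusted p = 0.0576). Abcc10, a pump with a wide substrate range, was at 12.3 ± 1.5 TPM in cortex, 11 ± 0.596 TPM in OM and 10.6 ± 1.36 TPM in IM. It was lower in IM than in cortex by a small difference (log2 difference -0.20, SE 0.09, adjusted p = 0.046), which was lost without any of cortex 2, 4 or 5, OM 2 to 5 or IM 1 to 3 (adjusted p = 0.0517 to 0.14). After scaling Abcc10 was also lower in OM than in cortex (log2 difference -0.30) and in IM than in OM (log2 difference -0.55), which did not pass on the TPM scale (adjusted p = 0.222 and 0.576). Abcb1a and Abcb1b, the near-identical genes of P-glycoprotein, stayed below 5 TPM in every zone.

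By the rule for enrichment, 8 members were enriched in IM, namely Slco4a1, Abcc4, Abcc1, Abcc5, Abcc3, Abcg1, Slc22a15 and Slc22a21, while 20.9% of all genes were. After scaling, the 7 other than Slc22a21 met it, where 9.15% of all genes did. Summed markers of several other cell types were also higher in IM than in OM, on the TPM scale, where 66.4% of all genes were higher in IM. Principal cell markers (Aqp2, Aqp3, Fxyd4 and Scnn1b, 3 of 4 higher in IM than in OM) went from 747 to 1089 TPM in OM to 7808 to 12683 TPM in IM, endothelial markers (Pecam1, Emcn, Plvap, Kdr and Cdh5, 4 of 5 higher) from 289 to 356 TPM to 1257 to 1705 TPM, and urothelial markers (Upk1a, Upk1b, Upk3a, Upk3b and Krt5, 5 of 5 higher) from 9.84 to 39.7 TPM to 175 to 288 TPM. Scnn1b among the principal cell markers and Kdr among the endothelial markers overlapped between OM and IM. No gene of these lists was at 0 in OM or IM, while Upk1b was at 0 in 1 and Krt5 in 3 cortex libraries. OM 1 was the highest OM library for the principal cell, endothelial and urothelial sums alike, as for Slco4a1 and Abcc5. The part of these cell types in the transporters' rise was not tested.

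The promoters of Slco4a1 and Abcc4, the pair with the highest levels in IM among the 8 genes enriched there, are shown beside those of the chromosome 19 row for their base composition, each as the 120 bases before the start. That of Slco4a1 is chr2:180456125-180456244 on the plus strand with a GC share of 75.8%, and that of Abcc4 is chr14:118706220-118706339 on the minus strand with 78.3%.
Slco4a1: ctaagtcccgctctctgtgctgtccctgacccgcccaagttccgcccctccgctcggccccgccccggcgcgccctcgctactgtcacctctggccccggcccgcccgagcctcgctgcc
Abcc4: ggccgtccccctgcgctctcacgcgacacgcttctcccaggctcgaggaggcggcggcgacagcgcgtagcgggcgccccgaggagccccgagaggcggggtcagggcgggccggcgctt
In the chromosome 19 row, the stretches shown above had GC shares of 30% for Slc22a28, 28.3% for Slc22a29, 29.2% for Slc22a30, 41.7% for Slc22a19, 43.3% for Slc22a6 and 50.8% for Slc22a8. The median over all 32851 promoters was 54.2%, and over the 64 promoters of members 53.3%.

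**Figure D4:**
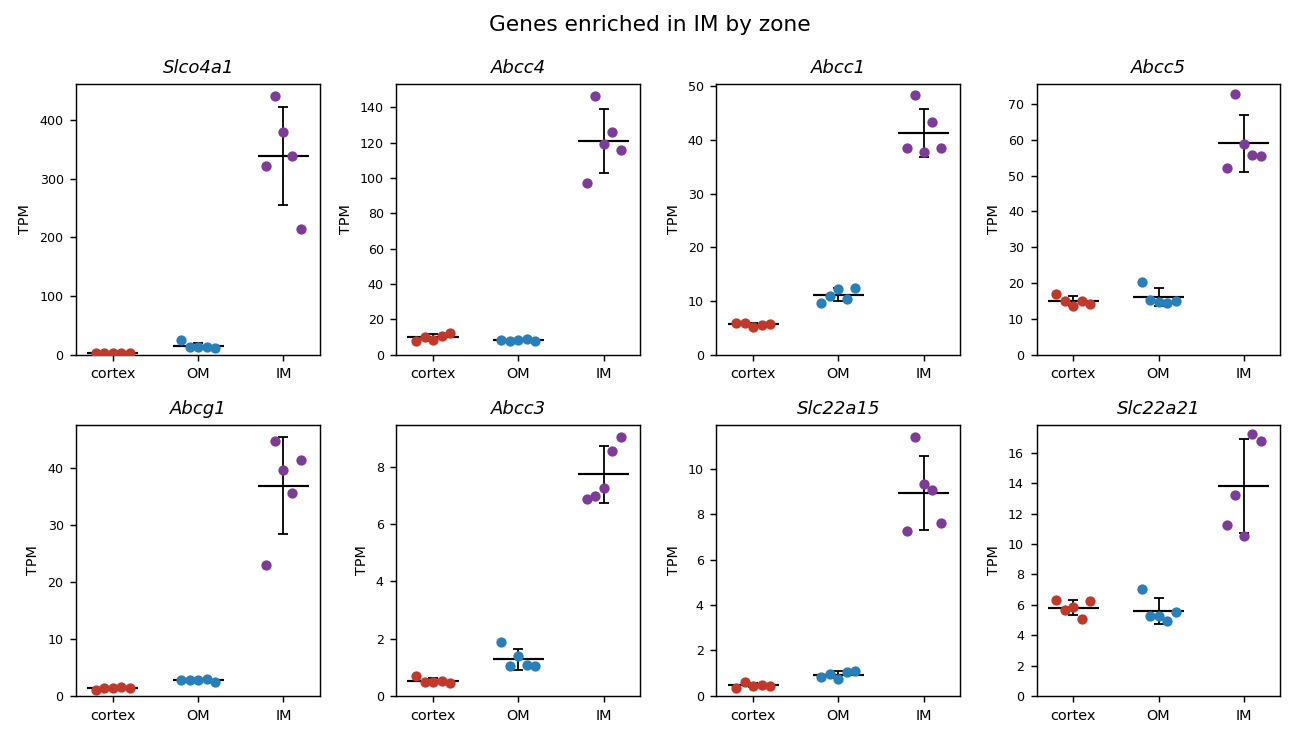
TPM of the 8 genes enriched in IM, where each point is a library, the wide bar the zone mean and the error bar 1 SD (n = 5). In every panel the 5 IM points lie above all cortex and OM points, and Slco4a1 spans the widest range, from 3.33 TPM on average in cortex to 339 TPM in IM.

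Of the lipid, sterol and bile salt pumps (7 genes), Abcg1 alone was tested. Abcg1, which exports cholesterol to lipoproteins, was 1.09, 1.4, 1.44, 1.49 and 1.38 TPM in cortex, 2.72, 2.78, 2.81, 2.9 and 2.45 TPM in OM and 23, 44.8, 39.7, 35.7 and 41.4 TPM in IM. Each zone lay clear of the others, in rising order. Abcg1 was 2-fold higher in OM than in cortex (log2 difference 0.66, SE 0.13, adjusted p = 0.0013) and 27.1-fold higher in IM than in cortex (log2 difference 3.97, SE 0.13, adjusted p = 3.79e-13). The 6 others (Abcb4, Abcb11, Abcg3, Abcg4, Abcg5 and Abcg8) had zone means of 0.894 TPM at most.

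Among the pumps of mitochondria and lysosomes, those described here differed little between zones on the TPM scale. After scaling their differences between IM and OM were larger in size. Abcb8, a mitochondrial pump, was 44.2, 51.2, 50.3, 50.1 and 49.7 TPM in cortex, 49.2, 51.2, 58.5, 53.6 and 51.6 TPM in OM and 46.5, 39.7, 41.5, 45.5 and 45.5 TPM in IM. Cortex overlapped with both other zones, while every OM library lay above every IM library. It was 1.21-fold lower in IM than in OM (log2 difference -0.27, SE 0.06, adjusted p = 0.000716), and lower in IM than in cortex (log2 difference -0.16, SE 0.06, adjusted p = 0.019), the latter lost without IM 2 (adjusted p = 0.0566). After scaling these differences were -0.80 and -0.85. Abcb6, which transports porphyrins, was at 33.9 ± 2.62 TPM in cortex, 38.6 ± 0.648 TPM in OM and 27.9 ± 1.78 TPM in IM, and was lower in IM than in OM (log2 difference -0.46, SE 0.06, adjusted p = 1.6e-06, and log2 difference -0.98 after scaling). Its rise in OM over cortex (log2 difference 0.19, SE 0.06, adjusted p = 0.0192) was lost without cortex 2 (adjusted p = 0.0514), without cortex 5 (adjusted p = 0.055) and after scaling (adjusted p = 0.735).

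Abcb10, which serves heme synthesis, was at 20.8 ± 1.37 TPM in cortex, 20.2 ± 1.86 TPM in OM and 23.3 ± 0.776 TPM in IM, higher in IM than in OM on the TPM scale (log2 difference 0.20, SE 0.06, adjusted p = 0.00914) and lower after scaling (log2 difference -0.32). In OM against cortex Abcb10 did not pass on the TPM scale (adjusted p = 0.66) and was lower after scaling (log2 difference -0.19, adjusted p = 0.0347). In IM against cortex it went the same way as against OM, with 0.16 and -0.51 on the respective scales, the former lost without cortex 1, 3 or 4 or IM 1 or 2 (adjusted p = 0.0537 to 0.0706). Abcb9, a lysosomal peptide pump, was at 5.61 ± 0.435 TPM in cortex, 6.76 ± 0.57 TPM in OM and 7.15 ± 0.691 TPM in IM. It was higher in IM than in cortex on the TPM scale (log2 difference 0.30, SE 0.08, adjusted p = 0.0016) and lower after scaling (log2 difference -0.30). Against OM it did not pass on the TPM scale (adjusted p = 0.401) and was lower after scaling (log2 difference -0.40). Its call in OM against cortex (log2 difference 0.23, adjusted p = 0.0275) was lost without cortex 1 or 5 or OM 2 or 5 (adjusted p = 0.0584 to 0.077) and after scaling.

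Abcc9, the sulfonylurea receptor of potassium channels in smooth muscle and pericytes, was 4.01, 2.36, 2.79, 2.53 and 2.31 TPM in cortex, 6.92, 7.96, 6.34, 6.4 and 9.08 TPM in OM and 7.16, 5.01, 5.63, 5.21 and 4.97 TPM in IM. Cortex lay below both other zones without overlap, with cortex 1 the highest of its zone, and OM and IM overlapped. Abcc9 was 2.62-fold higher in OM than in cortex (log2 difference 1.14, SE 0.13, adjusted p = 8.32e-06). It was lower in IM than in OM (log2 difference -0.34, SE 0.13, adjusted p = 0.0229), a call lost without OM 2, OM 5, IM 2 or IM 5 (adjusted p = 0.0518 to 0.0685), and higher in IM than in cortex on the TPM scale (log2 difference 0.80, SE 0.13, adjusted p = 2.2e-05) but not after scaling (adjusted p = 0.102). Of the smooth muscle and pericyte markers Acta2, Myh11, Pdgfrb and Rgs5, 2 of 4 were higher in OM than in cortex. None of them was at 0, and 28.3% of all genes were higher in that comparison. The summed markers were 43.3 to 65 TPM in cortex, 70.5 to 126 TPM in OM and 62.9 to 108 TPM in IM. The part of these markers in the change of Abcc9 was not tested.

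The members of low level complete the account. The 21 genes that were not tested had zone means of 1.27 TPM or less, the highest being the other sulfonylurea receptor Abcc8 in IM. Slco6c1, Slco6d1, Abcb5 and Slc22a20 were listed at 0 in every library, where the limit that a count of 0 allows (3 reads) is 0.119 to 0.184 reads per 1000000 reads by library, for counting error only. Slco1b2, Abcb11, Slco1c1 and Slco1a5, OATPs and a bile salt pump known from liver, brain and other organs, were under 0.345 TPM on average in every zone. Besides Slc22a29, Abcb1a and Abcb1b, the tested genes below 5 TPM in every zone were Slco1a4, Slc22a14 and Slc22a13b-ps. The last, a pseudogene copy of Slc22a13 and the leading row outside the roles, was 0.951, 0.585, 0.746, 0.812 and 0.345 TPM in cortex, 3.16, 2.02, 2.87, 2.18 and 1.96 TPM in OM and 2.28, 1.64, 1.58, 1.23 and 2 TPM in IM. Cortex lay below both other zones. Its reads may be shared with Slc22a13, where cortex lay below OM but overlapped with IM.

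Related genes outside the symbol rule were counted in 3 lists, drawn up with earlier results of these data known. Of 23 other transporters of drugs and organic ions, 17 were tested. From cortex to OM 5 were higher and 3 lower, from OM to IM 4 were higher and 12 lower, and between IM and cortex 4 were higher and 11 lower in IM, beside the shares of all genes given above. After scaling these counts were 3 and 5, 2 and 13, and 2 and 13. Slc17a1 and Slc17a3, phosphate and urate carriers of the brush border, led with means of 406, 391 and 109 TPM and 383, 343 and 97.7 TPM in cortex, OM and IM, followed by Slc6a13, a carrier of GABA and taurine, with 121, 216 and 79.4 TPM. Slc6a13 was higher in OM than in cortex (log2 difference 0.86, SE 0.26, adjusted p = 0.0214), which did not pass after scaling (adjusted p = 0.0679). The 3 lower in OM than in cortex were Slc51a, a subunit of a bile salt and steroid carrier, with 142, 76.4 and 12.7 TPM, the urate carrier Slc2a9 with 14.4, 8.89 and 3.56 TPM and Slc17a4 with 6.38, 2.87 and 2.93 TPM.

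Against the majority, 4 of these were higher in IM than in OM. Slc44a1, a choline carrier, was at 10 ± 1.27 TPM in cortex, 15.9 ± 2.38 TPM in OM and 67.9 ± 8.97 TPM in IM (IM against OM, log2 difference 2.03, SE 0.11, adjusted p = 1.8e-10). Slc19a2, a thiamine carrier, had means of 10.7, 11.3 and 19.8 TPM and the nucleoside carriers Slc29a1 and Slc29a2 of 26.2, 27.6 and 35.3 TPM and 3.73, 4.93 and 7.62 TPM in the same order. After scaling, Slc44a1 and Slc19a2 were the ones of these 4 that were higher in IM than in OM. Between IM and cortex Slc29a1 went from higher (log2 difference 0.40) to lower (-0.28) with scaling, and Slc19a2 from higher to an adjusted p of 0.112. The call of Slc29a2 in OM over cortex (adjusted p = 0.0106) was lost (adjusted p = 0.0907), and Slc17a4 became lower in IM than in OM (log2 difference -0.37).

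Of the 10 partners of the carriers, the dicarboxylate transporters and scaffold proteins, all were tested, 1 was higher and 4 lower in OM than in cortex, and 2 were higher and 8 lower in IM than in OM and than in cortex. After scaling the counts were 1 and 5 for OM against cortex and 1 and 9 for each IM comparison. Of all genes, 28.3% were higher and 6.3% lower in OM than in cortex on the TPM scale. The shares were 66.4% and 17.2% for IM against OM and 70.2% and 16% for IM against cortex. With scaling they were 16.5% and 17%, 37.9% and 36.5%, and 40.1% and 38.5% in the same order. Pdzk1, the scaffold that holds Slc22a12 and other carriers at the brush border, had means of 1036, 1037 and 321 TPM, its binding partner Pdzk1ip1 of 1126, 764 and 543 TPM and the scaffold Slc9a3r1 of 459, 466 and 198 TPM in cortex, OM and IM. Slc13a3, the dicarboxylate carrier that feeds the exchange by Slc22a6 and Slc22a8, was named after its values were seen. It was at 447 ± 55.3 TPM in cortex, 283 ± 58.1 TPM in OM and 50.4 ± 10.9 TPM in IM and lower in OM than in cortex (log2 difference -0.67, SE 0.17, adjusted p = 0.0062). Slc9a3r2 and ezrin (Ezr) were the ones higher in IM than in OM. For Slc9a3r2 that difference was 1.35 (SE 0.11), and for Ezr it was 0.18 on the TPM scale but -0.36 after scaling. Against cortex the difference of Ezr was 0.22 on the TPM scale and -0.47 after scaling, each past the test.

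Of 16 transcription factors and nuclear receptors known to regulate such transporters, 15 were tested, 2 were higher and 3 lower in OM than in cortex, 5 higher and 8 lower in IM than in OM, and 5 higher and 7 lower in IM than in cortex. Over all genes 28.3% were higher and 6.3% lower in OM than in cortex on the TPM scale. The shares were 66.4% and 17.2% for IM against OM and 70.2% and 16% for IM against cortex. After scaling the counts were 2 and 3 for OM against cortex and 3 and 10 for each IM comparison. Scaled shares of all genes were 16.5% and 17% for OM against cortex, 37.9% and 36.5% for IM against OM, and 40.1% and 38.5% for IM against cortex. Hnf4a, a factor of proximal tubule and liver genes, had means of 396, 358 and 100.2 TPM and the bile acid receptor Nr1h4 of 163, 117 and 36.9 TPM, both lower in IM than in OM (log2 differences -1.90 and -1.72). Higher in OM than in cortex were Ahr (log2 difference 0.43) and the estrogen receptor Esr1 (log2 difference 0.93), the latter with 1.92, 4.54 and 2.36 TPM. The genes higher in IM than in OM were Nfe2l2 with 39.8, 44 and 125 TPM, the aryl hydrocarbon receptor Ahr with 1.91, 2.93 and 7.41 TPM, Bcl6 with 14.2, 18.2 and 79.1 TPM, Nr1h2 with 87.2, 87 and 125 TPM and Rxra with 66.9, 55.5 and 68.3 TPM. After scaling Nfe2l2, Ahr and Bcl6 passed in that direction, Nr1h2 did not pass and Rxra was lower. Against cortex, scaling ended the call of Nr1h2 (adjusted p = 0.0783) and made Rxra and Esr1 lower in IM (log2 differences -0.66 and -0.26), which had not passed on the TPM scale. Nr1i3 was higher in IM than in cortex (log2 difference 0.60, SE 0.14, adjusted p = 0.00103) but not after scaling (adjusted p = 0.774).

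**Figure D5:**
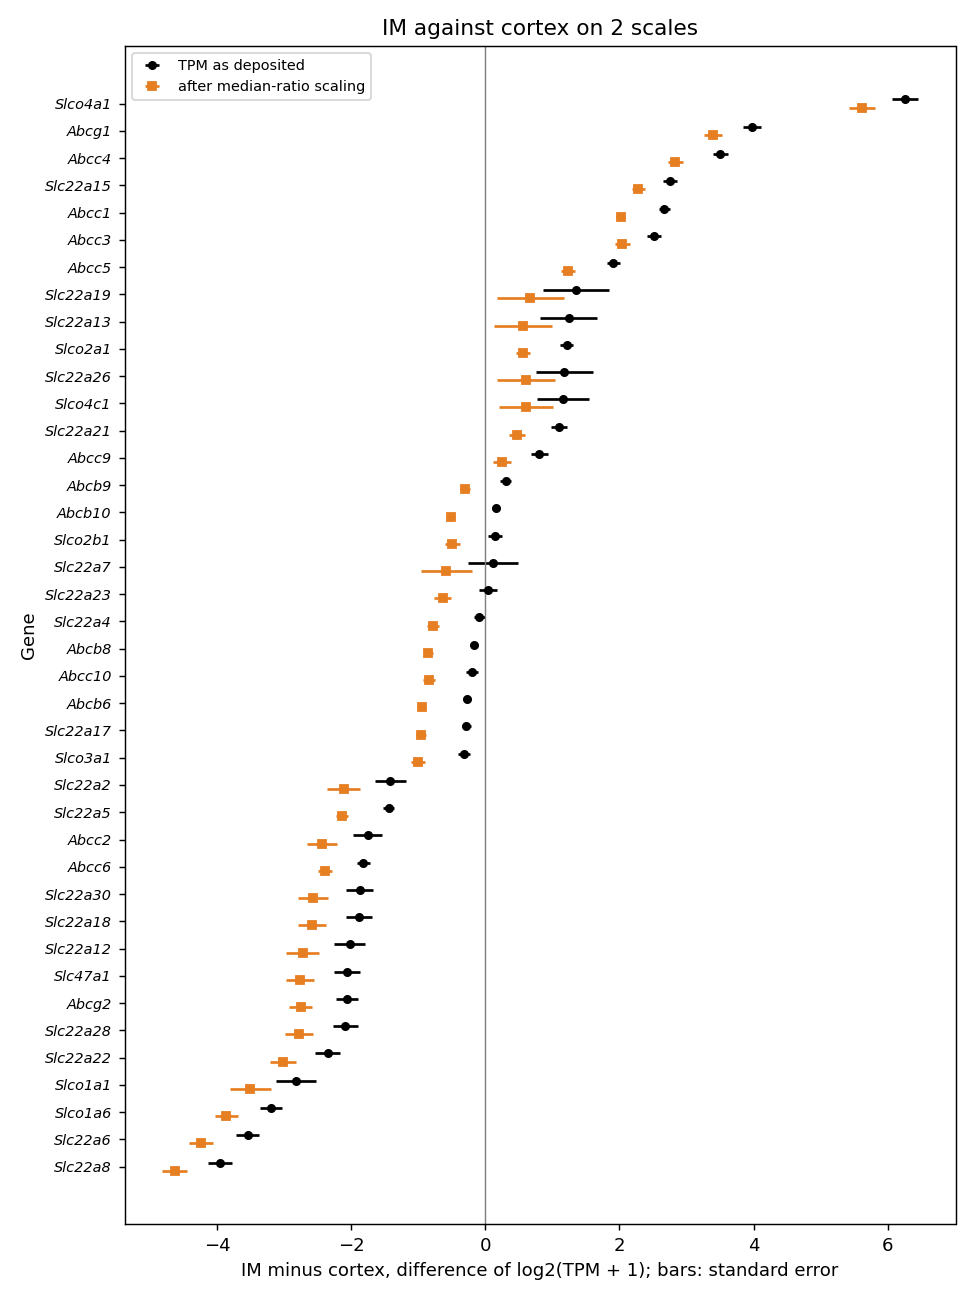
Difference of log2(TPM + 1) between IM and cortex for 40 of the 42 members at 5 TPM or more in a zone, on the TPM scale (circles) and after median-ratio scaling (squares), with bars for the standard error. Scaling moves every gene to the left, from Slco4a1 at 6.26 and 5.62 to Slc22a8 at -3.95 and -4.63, and it carries genes near 0 such as Abcb9, Abcb10, Slco2b1, Slc22a7 and Slc22a23 across that line.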

How the data were processed

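Bulk RNA was sequenced as paired-end Illumina libraries from 3 dissected zones, with 5 libraries each, per the labels' protocols. TPM values for 25030 gene symbols form the single table the authors deposited. Per the submitters' processing notes, STAR (no version) and the build mm9 were used. Which counter, annotation and strand setting made the values is not given in the sources used here, so reads of overlapping, antisense or near-identical genes cannot be told apart. TPM fixes each library's total, so a fall of abundant genes raises the rest.

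Members and all lists were chosen with earlier results of these data known. A filter of 1 TPM in 5 libraries left 15052 genes, which were fitted as log2(TPM + 1) by limma 3.58.1 in R 4.3.3 (trend and robust settings, statmod 1.5.0), with zone as the only factor, all 15 libraries in the fit and two-sided tests adjusted by Benjamini-Hochberg over all genes tested. The script was tested on simulated data. The pseudocount makes differences on this scale understate the change of low genes. Fold values are ratios of zone mean TPM, while log2 differences compare zone means of log2(TPM + 1). Where libraries of a zone spread widely, as for Slc22a19 in cortex, the log2 difference (2.78) can exceed that of the fold (5.43). Ratios were tested with exact permutations over libraries, adjusted over 15 tests. Some genes in the counts, tests and lists, and the results that need them, are not reported here.

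Whole reads were recovered from the steps of the TPM values for each of the 19997 genes detected in 2 or more libraries (100%, tolerance 0.001 reads), with 762 genes left out and totals of 16264486 to 25195553 reads. On them voom, with median-ratio library sizes, called 2352 genes higher and 2441 lower in OM than in cortex, 5565 and 5489 in IM than in OM, and 6018 and 5817 in IM than in cortex.

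Named with values were members at 5 TPM or more in a zone, with every library for those enriched in a zone, at 50 TPM or more, or leading their role. Of the other lists the 3 most abundant genes and those called against the majority were named. RefSeq promoters were aligned with Biopython 1.88, and no coordinates of the authors' build are printed. Alternatives were a pseudocount of 0.1, no filter, median-ratio scaling, quantile normalization, voom, a replicate block, each library left out, cortex 1, OM 1 and IM 4 left out together and, added after seeing the data, only the zones compared in the fit.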

Additional observations from a re-analysis of the deposited data

Results flagged for a closer look

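In 126 groups of 5 libraries (42 genes in 3 zones), 13 had a library whose gap to the nearest other exceeded 0.71 of the group's range, where chance gives about 1 in 20 groups. Cortex 1 held 6 of them and OM 1 held 4. Cortex 1 was the highest of its zone for Slc22a28 at 244 TPM (others 194 to 198), Abcc9 at 4.01 TPM (others 2.31 to 2.79) and Abcc3 at 0.698 TPM (others 0.461 to 0.522). It was the lowest for Slc22a6 at 593 TPM (others 681 to 691), Abcb8 at 44.2 TPM (others 49.7 to 51.2) and Abcg1 at 1.09 TPM (others 1.38 to 1.49). OM 1 was the highest of its zone for Slco4a1 at 24.8 TPM (others 11.9 to 13.7), Abcc5 at 20.4 TPM (others 14.4 to 15.3) and Slc22a21 at 7.07 TPM (others 4.92 to 5.53), and the lowest for Slc47a1 at 613 TPM (others 647 to 658). OM 3 was the highest for Slco1a1 at 220.0 TPM (others 127 to 153), and OM 5 for Slc22a13 at 240.0 TPM (others 176 to 182). IM 4 was the lowest for Slc22a7 at 50.6 TPM (others 172 to 200.2). IM 4 also had the highest summed adipocyte markers (Adipoq, Plin1, Cfd and Fabp4) of the IM libraries at 873 TPM (others 370 to 472 TPM), and OM 5 the highest straight proximal tubule sum of the OM libraries at 3499.6 TPM (others 2673 to 2942 TPM). The part of these sums, and of those given with the results for cortex 1, OM 1 and IM 4, in these values was not tested.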

How the results depend on the processing

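The members higher in IM than in cortex numbered 19 as reported, 12 after median-ratio scaling, 8 after quantile normalization and 11 with voom on recovered reads. Those enriched in cortex numbered 1 as reported, 2 after median-ratio scaling and 3 with voom. Those lower in OM than in cortex numbered 7 as reported and 12 with only those zones in the fit, where the spread of the IM libraries does not enter. With each library left out in turn, members higher and lower in OM than in cortex numbered 16 to 19 and 6 to 10, in IM than in OM 11 to 11 and 29 to 31, and in IM than in cortex 17 to 19 and 22 to 24, and those enriched in cortex, OM and IM 1 to 1, 4 to 5 and 8 to 8. A pseudocount of 0.1 or no filter kept these 9 counts within 1.5 times of the reported ones. Among all 15052 genes tested, 10567 (70.2%) were higher in IM than in cortex as reported. After median-ratio scaling 40.1% were, and voom called 6018, so such calls were fewer over all genes too. Enrichment in cortex held for 0.452% of all genes as reported and 0.89% after median-ratio scaling, and 6.3% were lower in OM than in cortex as reported. Shares of all genes under the remaining alternatives are not given here.

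Signs turned under median-ratio scaling, quantile normalization and voom, in this order. For IM minus OM the log2 differences were -0.32, -0.40 and -0.34 for Abcb10, -0.40, -0.60 and -0.46 for Abcb9, and -0.43, -0.53 and -0.46 for Slco2a1. For IM minus cortex they were -0.51, -0.58 and -0.54 for Abcb10, -0.30, -0.58 and -0.35 for Abcb9, -0.64, -0.63 and -0.66 for Slc22a23, and -0.49, -0.72 and -0.57 for Slco2b1, and for Abcc9 it was -0.10 after quantile normalization alone. These scalings lower the typical gene of IM by construction.

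The labels do not say whether same-numbered libraries share a mouse. Their deviations correlated at -0.0268 to 0.262, above 0.1 in 8 of 15 pairs and so not in every pair, and the libraries were taken as unpaired. The own number was the best match out of 5 libraries in 20 of 30 cases, more often than a random pick would give. This is a hint of pairing from the data and not from the design, and the tests without the block do not use it. With the replicate block the 9 counts were 18, 7, 11, 31, 19, 24, 1, 5 and 8, as reported, but among the genes lower in OM than in cortex Abcc6 was lost (adjusted p = 0.0587) and Slco1a1 gained (adjusted p = 0.0404). Depth limits the genes near 1 TPM, and copies that share sequence stay uncertain at any depth.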
